A study of Mus musculus with 17 samples.

Results

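The change of the transcriptome of mouse neural retinal progenitor cells (mNRPCs) between day 1 and day 3 of culture without basic fibroblast growth factor (bFGF) was described in 4 of the 17 libraries of the series. These 4 are every library of days 1 and 3 whose label lacks bFGF. They are BM, the basic medium of DMEM/F12 with N2, B27 and beta-mercaptoethanol, and C, the same medium with CHIR99021, an inhibitor of the kinase GSK-3, each with 1 library at day 1 and 1 at day 3. The cells came from the neural retina of adult C57BL/6 mice, no genetic change is labelled, and the stock culture was kept in BM with bFGF and CHIR99021, so that BM cells lacked both agents and C cells lacked bFGF alone. The number of mice and of separate cultures behind the RNA is not given in the sources used here. For comparison the series holds B (BM with bFGF) and BC (BM with bFGF and CHIR99021) on the same days, all 4 media on days 5 and 7, and 1 day 0 library. The paper describes its day 0 control as cells in BM. Whether, and for how long, these cells had already been without bFGF is not given.

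Poly-A RNA was sequenced on the BGISEQ-500 platform. The deposited unit of the tests is the expected count of a gene, an estimated number of reads, and levels are given as FPKM, a read count scaled for the length of the transcript and the depth of the library. The 4 libraries held 17843055 to 18980140 expected counts in total and listed 15505 to 15723 genes each, and a gene that was not listed was read as 0. Each condition had a single library per day. BM and C were therefore used as the 2 members of each day, with CHIR99021 as a term of the model, and the error is the disagreement between the BM and C changes with 1 residual degree of freedom, not the spread between cultures. Whatever was particular to the handling of day 1 or day 3 cannot be told apart from the day itself. In bulk RNA, fewer cells of a kind and less RNA per cell cannot be told apart either.

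bFGF is a mitogen that binds FGF receptors and signals through the RAS, ERK and PI3K pathways, and it is a standard supplement of neural progenitor cultures. Cells that lose their mitogen commonly leave the cell cycle in G1. E2F factors then stop driving the genes of DNA replication, the MuvB complex holds mitotic genes down, and the supply lines of growth (ribosomes, sterols, amino acids) are turned down, while FOXO factors and the lysosome programme become active.

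Most of the expressed genes differed between the days. A mean FPKM of 1 or more over the 4 libraries was reached by 11219 genes, of which 8185 passed an adjusted p of 0.05 (edgeR quasi-likelihood test, Benjamini-Hochberg) and moved the same way in BM and in C. Of these, 4067 were higher at day 3 (36.3% of the 11219 tested) and 4118 were lower (36.7%). The median log2 fold change was 0.01 over all genes tested. A further 13 genes passed the threshold but did not move the same way in both media. Among the genes that passed, 857 were at least 2-fold higher in both BM and C (7.64% of those tested) and 963 at least 2-fold lower (8.58%), on FPKM + 1. A change of at least 8-fold in both media was found in 27 genes upward and 23 downward. The BM and C changes differed by a median of 0.13 on the log2(FPKM + 1) scale, against a median size of the change of 0.46, and 8.57% of the genes tested moved in opposite directions in the 2 media by any amount.

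**Figure D1:**
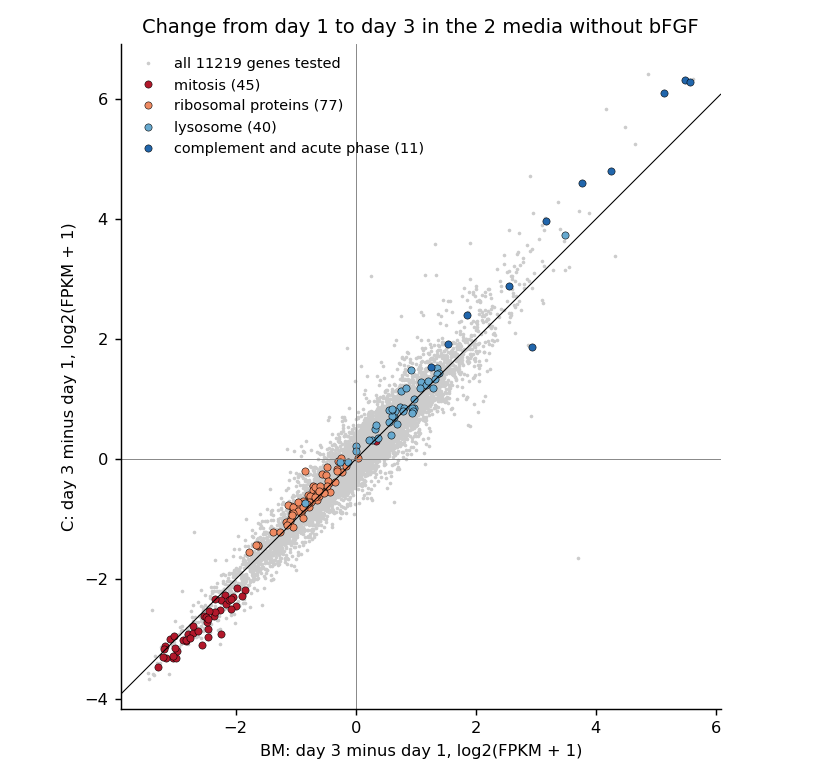
Each point is 1 of the 11219 genes tested, with its difference in log2(FPKM + 1) between day 3 and day 1 in BM on the x axis and in C on the y axis; the black line marks equal changes and 4 gene lists are coloured. The points lie along the line, with 44 of the 45 mitosis genes at the lower left and the complement and acute phase genes at the upper right.

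The step from day 1 to day 3 held more changed genes than any other step of the time course without bFGF. A mean FPKM of 1 or more over the 8 libraries of BM and C on days 1 to 7 was reached by 11336 genes, and 1820 of them differed by at least 2-fold the same way in BM and C from day 1 to day 3. The same count was 760 from day 0 to day 1, 75 from day 3 to day 5 and 21 from day 5 to day 7. The step from day 0 lasted 1 day and the others 2. Its changes in all media are measured from the same day 0 library, so their agreement is not independent. With bFGF, the counts in B and BC were 342, 1327, 963 and 56 over the same 4 steps. The count between days 3 and 5 was thus 963 with bFGF and 75 without it. All these counts require the same direction in both media of a pair. Counted within single media from day 1 to day 3, BC had 2340 such genes, more than C (2229) or BM (2138). B had fewer (1535). The joint count of 1327 therefore does not mean that each medium with bFGF changed less over this step. In an edgeR fit of the 8 libraries without bFGF, 8610 genes passed an adjusted p of 0.05 between days 1 and 3 (76.0%), 3308 between days 3 and 5 (29.2%) and 85 between days 5 and 7 (0.75%). The count between days 3 and 5 was 1540, 1557, 1489 and 1384 without the BM day 3, C day 3, BM day 5 or C day 5 library. The count between days 5 and 7 was 529 without the BM day 1 library and 538 without the C day 1 library, and it stayed below that between days 3 and 5 in every one of these fits.

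**Figure D2:**
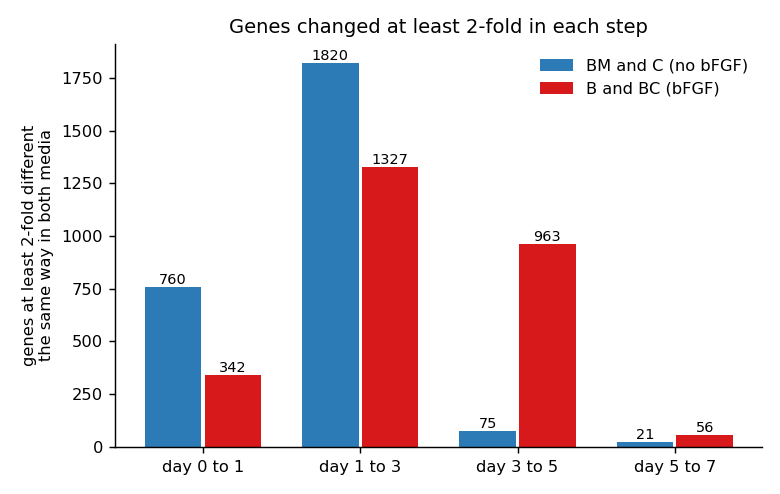
The bars count genes, out of 11336, that differed by at least 2-fold in FPKM + 1 the same way in both media between neighbouring time points, in blue for BM and C and in red for B and BC. Without bFGF the count is 1820 between days 1 and 3 and 75 between days 3 and 5.

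The label of the cells was checked against markers. Pax6 and Six3, eye field and progenitor factors, were present at an FPKM of 42.16 and 37.11 in BM on day 1, whereas Rax, a further retinal progenitor factor, was under 0.1 in all 4 libraries. All 12 markers of microglia and macrophages and all 11 of retinal pigment epithelium stayed under an FPKM of 1 in all 4 libraries, as did 18 of 19 photoreceptor and 21 of 26 neuronal markers. The defining microglial genes C1qa, C1qb, C1qc, Trem2 and Tyrobp were not listed in any of the 4 and so were read as 0. Of 16 markers of Müller glia and astrocytes, 5 were expressed (Vim, Cd44, Glul, Dkk3 and Apoe). The other 11, among them Gfap, Slc1a3, Rlbp1 and Aqp4, stayed under an FPKM of 1 in all 4 libraries. The summed FPKM of the list went from 1890.56 in BM and 1863.57 in C to 2410.75 and 2819.01, and Cd44 did not pass. The sum of 10 fibroblast markers, mostly S100a4 and Col3a1, went from 1606.69 and 1229.54 to 471.84 and 384.54. Those 2 genes and Prrx1 fell, while the low members Col1a1 (0.62 and 0.85, then 3.33 and 4.41), Dcn (0.78 and 0.59, then 6.44 and 2.95) and Pdgfra (1.54 and 1.06, then 5.27 and 4.02) rose. Col1a1 and Dcn reached the mean FPKM needed for testing only through their day 3 values. The sum of the 26 neuronal markers went from 44.83 and 46.78 to 101.86 and 94.46, most of it Tfap2a, an amacrine cell factor, which rose from 27.04 and 27.13 to 94.29 and 84.88. The part that a shift in the kinds of cells had in the results was not tested.

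Genes of mitosis fell together. Cdc20, an activator of the anaphase-promoting complex on chromosome 4 (118432901 to 118437343, GRCm38.p6), was at an FPKM of 87.66 in BM and 87.47 in C on day 1, and at 8.61 and 8.03 on day 3. Ccnb2, a B-type cyclin on chromosome 9 (70407689 to 70421554), was at 70.21 and 77.72 on day 1 and at 6.97 and 6.92 on day 3. Ccna2, the cyclin of S phase and G2 on chromosome 3 (36564865 to 36573038), was at 104.77 and 123.95 and then at 9.72 and 10.4. In each of the 3 genes both day 3 libraries lay far below both day 1 libraries, and the medium made little difference. The fold changes were 10.7 for Cdc20, 10.9 for Ccnb2 and 11.5 for Ccna2, all downward, with log2 fold changes of -3.43 ± 0.08, -3.44 ± 0.09 and -3.52 ± 0.09 (SE, adjusted p of 4.02e-09, 4.22e-09 and 4.02e-09, edgeR). Of 45 mitosis genes, all of which passed the filter, 44 fell, all 44 by at least 2-fold in both media, and the median log2 fold change was -3.04, beside 36.7% and 8.58% of all genes tested. Cdca3, a mitotic entry factor, went from 61.32 and 69.67 to 4.66 and 4.95, and Mybl2, the B-Myb activator of mitotic genes, from 26.34 and 25.11 to 1.97 and 1.92. Both were more than 10-fold lower on day 3 (13.4-fold and 12.9-fold). The proliferation marker Mki67 went from 76.14 and 97.12 to 8.34 and 9.1. Aurkb, a kinase of the chromosomal passenger complex, went from 37.94 and 41.62 to 3.89 and 3.31, and Top2a, which untangles sister chromatids, from 106.53 and 119.13 to 14.23 and 13.9. The exception was Pttg1, securin, the inhibitor of separase, which was slightly higher at day 3 (37.33 and 30.78, then 47.27 and 38.19; log2 fold change 0.32 ± 0.10, adjusted p = 0.0125).

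Genes of DNA replication fell almost as uniformly. Mcm5, a subunit of the replicative helicase on chromosome 8 (75109468 to 75128439), was at an FPKM of 32.81 in BM and 37.05 in C on day 1 and at 2.52 and 2.6 on day 3. Rrm2, the regulated subunit of ribonucleotide reductase on chromosome 12 (24708254 to 24714146), went from 58.09 and 69.86 to 4.67 and 4.91, and Tk1, the S-phase thymidine kinase on chromosome 11, from 49.89 and 53.62 to 4.13 and 4.21. These were falls of 13.9-fold, 13.6-fold and 12.9-fold, and both day 3 values lay below both day 1 values in each gene. Of 50 replication genes tested, 49 fell, 40 of them by at least 2-fold in both media, and the median log2 fold change was -2.12. The shares over all genes tested were 36.7% and 8.58%. Rfc1, the large subunit of the clamp loader, was the member that did not pass (20.88 and 21.08 on day 1, 20.86 and 22.53 on day 3, adjusted p = 0.835, edgeR). 2810417H13Rik (Pclaf), a PCNA-binding factor, went from 41.42 and 49.15 to 3.58 and 4.52. Pcna, the sliding clamp, fell less than the helicase, from 134.73 and 148.79 to 25.9 and 33.22, or 4.92-fold. All 18 tested genes of homologous recombination and the Fanconi pathway fell, with a median of -3.09. Chek1, the checkpoint kinase, went from 7.04 and 6.66 to 0.56 and 0.75. With any 1 of the 4 libraries left out, 44 mitosis genes and 48 or 49 replication genes still fell.

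**Figure D3:**
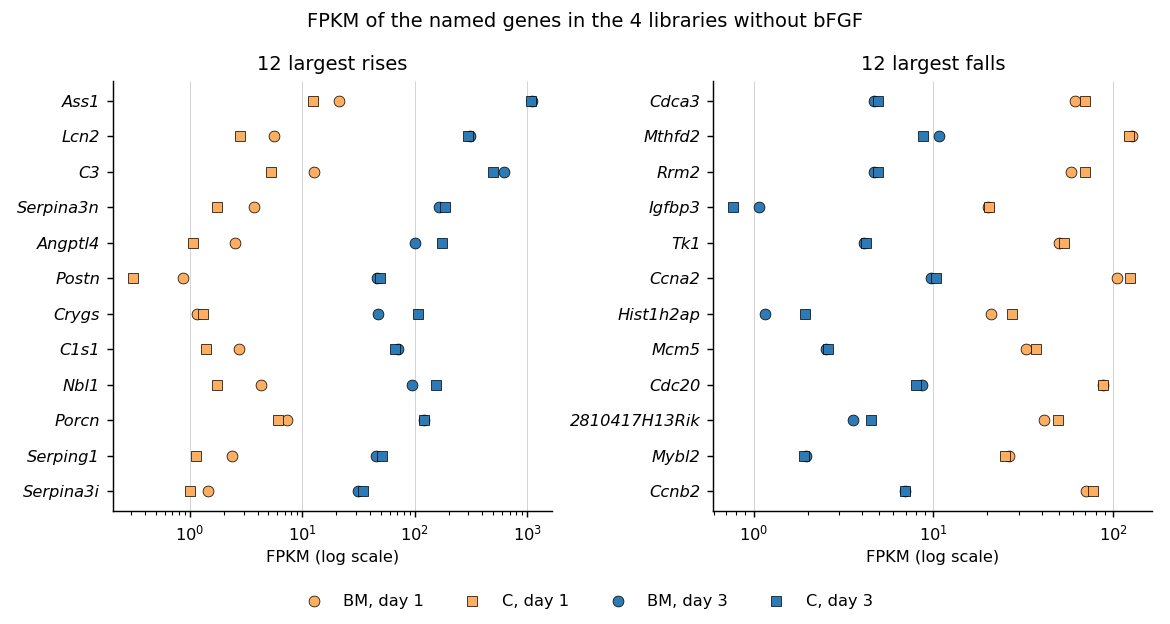
The FPKM (log scale) of the 12 largest rises and the 12 largest falls is shown in BM (circles) and C (squares) on day 1 (orange) and day 3 (blue), 1 library each. In every row both day 3 symbols lie on the same side of both day 1 symbols, which follows largely from how these genes were chosen. Ass1 goes from 21.38 and 12.4 to 1105.96 and 1085.16, and Cdc20 from 87.66 and 87.47 to 8.61 and 8.03.

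The promoters of the groups were read for the letters of known motifs. The 250 bases before each gene start were taken from RefSeq (GRCm38.p6, which has the primary assembly of mm10, the build named in the submitters' processing notes), and 9036 of the 11219 genes tested had such a sequence. A gene counted if any of its listed promoters held the motif on either strand. The CHR element TTTGAA, through which MuvB complexes bind, was in 12 of 38 mitosis promoters (31.6%) and in 12.7% of all. CCAAT, the NF-Y box, was in 29 of the 38 (76.3%) and in 41.8% of all, and both together were in 28.9% and 5.0%. A strict E2F site (TTTGGCGC, TTTCGCGC, TTTCCCGC or TTTGCCGC) was in 12 of 40 replication promoters (30.0%), in 1 of 38 mitosis promoters (2.6%) and in 4.2% of all. CCAAT was also in 16 of 16 promoters of cholesterol synthesis genes, and the E-box CACGTG, the core of the CLEAR element of lysosomal genes, in 12 of 32 lysosome promoters (37.5%) and in 10.1% of all. These shares describe letters in a window, and the binding of a factor was not measured. The sequences are the 100 bases that end just before the start of 5 genes that changed, 1 or 2 from each group, 5′ to 3′ on the gene's strand, with the motif letters in capitals. For replication, cholesterol synthesis and the lysosome, only genes with the motif of their group in these bases were eligible. That motif is thus present by choice. For mitosis, Cdc20 and Ccnb2 were picked by hand among the named falls. Cdc20 (chr4:118437344-118437443, minus strand) and Ccnb2 (chr9:70421555-70421654, minus strand) stand for mitosis, Dtl, the receptor of the ubiquitin ligase that removes the licensing factor Cdt1 (chr1:191575545-191575644, minus strand; FPKM 12.55 and 11.63 on day 1, 1.99 and 2.32 on day 3), for replication, Mvd of the mevalonate pathway (chr8:122443423-122443522, minus strand) for cholesterol synthesis, and Ctsf, a cathepsin (chr19:4855065-4855164, plus strand), for the lysosome.
Cdc20: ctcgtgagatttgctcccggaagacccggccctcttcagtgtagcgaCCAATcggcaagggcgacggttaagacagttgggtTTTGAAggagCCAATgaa
Ccnb2: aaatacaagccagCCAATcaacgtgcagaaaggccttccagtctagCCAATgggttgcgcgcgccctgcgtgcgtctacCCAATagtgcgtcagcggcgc
Dtl: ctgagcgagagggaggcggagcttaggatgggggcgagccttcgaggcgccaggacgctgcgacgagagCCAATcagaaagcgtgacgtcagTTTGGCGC
Mvd: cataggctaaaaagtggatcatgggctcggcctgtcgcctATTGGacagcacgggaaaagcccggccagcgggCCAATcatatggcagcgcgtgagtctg
Ctsf: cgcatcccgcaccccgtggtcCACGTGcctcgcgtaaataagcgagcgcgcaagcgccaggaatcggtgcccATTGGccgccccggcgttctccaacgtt

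Regulators of G1 did not share 1 direction. Of 20 G1 cyclins, their kinases and CDK inhibitors, 8 rose and 7 fell, shares close to the 36.3% and 36.7% of all genes tested. Ccnd1, the D-type cyclin that mitogens induce, fell from 538.09 in BM and 362.09 in C to 116.29 and 79.71, or 4.68-fold. Cdkn1b, the CDK inhibitor p27, rose from 25.5 and 25.68 to 68.8 and 68.66, and Gas1, a growth arrest gene, from 61.62 and 53.18 to 380.45 and 450.14. Among 20 p53 targets 7 rose and 8 fell, again near those shares, and the 8 falls were 4 without the BM day 1 library and 5 without the C day 1 library. Gdf15, a stress cytokine on that list, went from 24.43 and 23.52 to 2.79 and 3.26.

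Genes that report ERK signalling were mixed as well. Fosl1, an AP-1 subunit, went from an FPKM of 32.52 in BM and 20.72 in C to 2.19 and 2.81, and Etv4, an ETS factor downstream of FGF receptors, from 17.56 and 13.49 to 3.37 and 2.16. Both fell, by 10.7-fold and 5.73-fold. Of 22 ERK feedback and immediate early genes tested, 11 rose (50.0%) and 8 fell (36.4%), beside 36.3% and 36.7% of all genes tested. Spry2, an FGF feedback inhibitor, did not pass (10.05 and 6.89, then 8.32 and 7.09, adjusted p = 0.365, edgeR). Dusp6, the ERK phosphatase, was higher at day 3 (12.2 and 5.4, then 17.95 and 9.75). On day 1 Fosl1 (85.44 in B), Etv4 (38.35 in B) and Dusp6 (33.63 in B) were already above their BM values, in 1 library of each medium. The 11 rises of the list were 6 without the C day 1 library and 7 without the BM day 3 library.

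Ribosomal protein genes fell by less but nearly all in the same direction. Rps2, a small subunit protein, was at an FPKM of 2616.44 in BM and 2786.85 in C on day 1 and at 764.56 and 951.6 on day 3, and Rpl12, a large subunit protein, went from 1339.64 and 1489.53 to 435.12 and 544.61. Rps27 was at 802.3 and 960.76 and then at 819.44 and 969.45. Of 77 ribosomal protein genes tested, of 81 on the list, 73 fell, beside 36.7% of all genes tested. A fall of at least 2-fold in both media was found in 10 of the 77, beside 8.58% of all genes tested. Rpl7, Rpl37a, Rps3 and Rps27 did not pass, and the median log2 fold change of the list was -0.79. The share of ribosomal protein genes in all expected counts went from 4.87% in BM and 5.42% in C to 2.71% and 3.3%. The size depended on the scaling, since the median was -0.50 after quantile normalization. Ribosomal protein genes have many near-identical pseudogene copies, and their transcripts are short (median length 711 bases, 2822 for all genes tested), so single members are uncertain.

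Genes that build the ribosome fell further. Nhp2, an H/ACA snoRNP protein, went from an FPKM of 57.13 in BM and 53.35 in C to 8.44 and 9.45, and Fbl, fibrillarin, the rRNA methyltransferase, from 156.62 and 164.66 to 32.17 and 42.47. All 34 ribosome biogenesis genes fell, 23 of them by at least 2-fold in both media, with a median log2 fold change of -1.53. The shares over all genes tested were 36.7% and 8.58%.

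Lipid synthesis fell as a group. Mvd, mevalonate diphosphate decarboxylase, went from an FPKM of 86.91 in BM and 78.81 in C to 14.6 and 10.92. The fall was 6.67-fold, and both day 3 values lay below both day 1 values. Of 24 genes of cholesterol synthesis and uptake, 23 fell, 18 by at least 2-fold in both media (median log2 fold change -1.82). Beside this list and the fatty acid list, the shares over all genes tested were 36.7% and 8.58%. Ebp, a sterol isomerase, was the exception and was higher at day 3 (41.49 and 41.13, then 50.66 and 56.4, adjusted p = 0.00277, edgeR). Of 12 fatty acid synthesis genes 10 fell, among them Fasn, fatty acid synthase (81.5 and 119.29, then 25.25 and 30.64), and Srebf1, the transcription factor of that pathway, rose (37.92 and 43.83, then 45.01 and 61.89).

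The amino acid response went down with them. Mthfd2, the mitochondrial folate enzyme on chromosome 6 (83305704 to 83326011), was at an FPKM of 128.08 in BM and 122.31 in C on day 1 and at 10.81 and 8.79 on day 3. Asns, asparagine synthetase, went from 203.22 and 212.07 to 34.07 and 31.32, and Trib3, a pseudokinase that ATF4 induces, from 77.17 and 78.58 to 7.21 and 8.06. The falls were 13.0-fold, 6.48-fold and 10.4-fold. Beside 36.7% and 8.58% of all genes tested, 20 of 24 ATF4 targets fell, 18 by at least 2-fold in both media. Their median log2 fold change was -2.03. Those that rose were Ddit4, an mTORC1 inhibitor, Nupr1, a stress factor, and Slc3a2, an amino acid transporter subunit. Of 18 chaperones and unfolded protein response genes of the endoplasmic reticulum, 16 fell, with a median of -0.73. Hspa5, the chaperone BiP, went from 609.68 and 614.57 to 195.44 and 234.62.

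Energy metabolism moved less and in both directions. Of 36 complex I subunits 29 fell, beside 36.7% of all genes tested, and the median log2 fold change was -0.63. Only 3 fell by at least 2-fold in both media, a share close to the 8.58% of all genes tested. Ndufv3 was among the 2 that rose (56.02 and 60.78, then 82.87 and 96.28). Of 18 glycolysis genes 9 fell (50.0%) and 6 rose (33.3%), beside 36.7% and 36.3% of all genes tested. Pkm, pyruvate kinase, went from an FPKM of 1658.09 in BM and 1852.88 in C to 718.42 and 906.85, and Ldha, lactate dehydrogenase, from 841.89 and 888.22 to 363.31 and 446.51. Aldoc, aldolase C, rose from 33.33 and 33.64 to 151.07 and 193.58. The count of 9 falls was 2 without the C day 1 library and 6 without either BM library. Metallothioneins Mt1 and Mt2, which bind metals, rose (Mt2 from 114.98 and 118.99 to 642.82 and 1140.5), while 7 of the 13 genes on the NRF2 and metallothionein list fell, Gclc, a glutathione synthesis enzyme, among them (17.9 and 19.72, then 5.83 and 7.8).

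Genes of the complement and acute phase response were among the largest rises. Lcn2, an iron-scavenging acute phase protein on chromosome 2 (32384637 to 32387739), was at an FPKM of 5.58 in BM and 2.82 in C on day 1 and at 310.57 and 296.02 on day 3. C3, the central complement protein on chromosome 17 (57203967 to 57228136), went from 12.73 and 5.23 to 618.69 and 496.53. Serpina3n, a secreted protease inhibitor that marks reactive glia, went from 3.7 and 1.73 to 165.04 and 187.06. All day 3 values lay above 100 and all day 1 values below 20 in these 3 genes. The folds were 71.1 for Lcn2, 63.5 for C3 and 63.8 for Serpina3n, with log2 fold changes of 6.15 ± 0.16, 5.99 ± 0.22 and 5.99 ± 0.23 (SE, adjusted p of 4.02e-09, 1.41e-08 and 1.5e-08, edgeR). C1s1, a protease of the C1 complex, went from 2.76 and 1.4 to 71.07 and 66.36, and Serping1, the inhibitor of C1, from 2.39 and 1.13 to 45.43 and 50.71. Serpina3i went from 1.45 and 1.01 to 31.37 and 34.41, and Serpina3g from 0.43 and 0.45 to 11.3 and 13.3. Cp, the copper carrier ceruloplasmin, was already expressed on day 1 (120.92 and 83.54) and reached 719.34 and 627.86. Beside 7.64% of all genes tested, all 11 of the 15 listed genes that passed the filter rose by at least 2-fold in both media. Members that pass only because they are high on day 3 had to differ, and of the other 4, C4b went from 0.11 and 0.15 to 2.19 and 1.11, and Cfi stayed at 0.05 or less in each library. Reads may be shared between near-identical Serpina3 genes, so Serpina3n, Serpina3i and Serpina3g are uncertain as single genes. On day 1 Lcn2, C3, Serpina3n, C1s1, Serping1 and Cp were all higher in BM than in C.

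Other large rises had different roles. Ass1, argininosuccinate synthase on chromosome 2 (31470270 to 31520670), which makes the precursor of arginine, was at an FPKM of 21.38 in BM and 12.4 in C on day 1 and at 1105.96 and 1085.16 on day 3, the largest rise of all by the smaller of its BM and C differences. Angptl4, a secreted inhibitor of lipoprotein lipase on chromosome 17, went from 2.51 and 1.06 to 101.41 and 175.1, and Porcn, the enzyme that adds the lipid to Wnt proteins, on chromosome X, from 7.35 and 6.11 to 122.13 and 121.18. These were rises of 65.2-fold, 73.1-fold and 18.6-fold. Nbl1, a BMP antagonist, went from 4.29 and 1.73 to 94.65 and 154.89, and Crygs, a lens crystallin, from 1.16 and 1.32 to 47.58 and 106.83. Only 4 genes went from an FPKM under 1 in both media to at least 10 in both, namely Postn, Galnt15, Sema4g and Serpina3g, and none went the other way. Postn, a matrix protein, was at 0.86 and 0.31 and then at 45.84 and 48.84, Galnt15, a glycosyltransferase, at 0.34 and 0.32 and then at 14.82 and 11.21, and Sema4g, a semaphorin, at 0.75 and 0.75 and then at 16.18 and 14.6. Igfbp3, an IGF carrier on chromosome 11 (7206086 to 7215498), was the steepest of the named falls by its fitted change, from 20.2 and 20.32 to 1.07 and 0.77, or 22.4-fold.

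Genes of the lysosome rose as a group. Ctsd, cathepsin D, went from an FPKM of 340.67 in BM and 326.59 in C to 896.09 and 882.3, and Ctsf, cathepsin F, from 4.49 and 2.59 to 60.34 and 47.02. Of 40 lysosome genes tested, 35 rose, 10 by at least 2-fold in both media, and 1 fell (Gusb, beta-glucuronidase, from 27.3 and 27.59 to 14.84 and 16.31). The median log2 fold change was 0.82. Of all genes tested, 36.3% rose and 7.64% rose by at least 2-fold in both media. In the autophagy list 15 of 23 rose, with a median of 0.55, including Map1lc3b, the LC3B protein of the autophagosome (51.26 and 40.83, then 144.23 and 117.8). Of 17 FOXO targets 15 rose (median 1.12), and Cat and Sod2 did not pass. Txnip, a thioredoxin inhibitor, went from 47.88 and 59.94 to 982.32 and 634.13, and Fbxo32, a ubiquitin ligase of atrophy, from 6.02 and 5.51 to 29.49 and 30.72. The FOXO count was 10 without the C day 1 library, and the autophagy count 11 without C day 1 or BM day 3.

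Antigen presentation genes mostly rose, while interferon-stimulated genes shared no direction. Of 17 genes of MHC class I presentation 14 rose, beside 36.3% of all genes tested, with a median log2 fold change of 0.87. H2-K1, a classical class I heavy chain, went from an FPKM of 847.17 in BM and 807.72 in C to 2170.39 and 2725.24, with the reservation that class I genes share much sequence. Psmb10, an immunoproteasome subunit, fell from 84.95 and 73.89 to 34.13 and 43.79. Of 33 interferon-stimulated genes 9 rose (27.3%) and 12 fell (36.4%), beside 36.3% and 36.7% of all genes tested. The list's median of -0.09 turned to 0.05 after quantile normalization, so that no direction is given for it. The 12 falls were 6 without the BM day 1 or C day 1 library, 7 without BM day 3 and 15 without C day 3. Oasl1, an antiviral protein, fell (128.8 and 125.54, then 34.57 and 36.84), and Irf7, the factor that amplifies interferon, was higher at day 3 (405.28 and 291.22, then 669.26 and 887.72), but Irf7 did not pass under DESeq2.

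Matrix genes mostly rose. Of 44 collagens 19 passed the filter, of which 15 rose and 3 fell, beside 36.3% and 36.7% of all genes tested. Here and in the matrix list, members that pass the filter only because they are high on 1 day had to differ. Col4a1, a basement membrane collagen, went from an FPKM of 94.11 in BM and 70.42 in C to 228.46 and 192.63, while Col3a1, a fibrillar collagen, fell from 303.44 and 272.38 to 144.33 and 132.03. In the list of basement membrane and matrix genes 17 of 24 tested rose and 3 fell. Mmp2, a gelatinase, went from 37.63 and 25.96 to 161.69 and 166.6, and Agrn, the proteoglycan agrin, from 60.18 and 59.64 to 176.5 and 173.53. Acta2, smooth muscle actin, rose from 53.65 and 22.26 to 376.14 and 225.61 together with Pdgfrb, a pericyte receptor (18.36 and 13.39, then 79.38 and 79.58). Their list summed to an FPKM of 72.3 and 35.83 on day 1 and 456.27 and 306.26 on day 3, and the other 8 of 10 endothelial and pericyte markers stayed under an FPKM of 1 in all 4 libraries. Of 20 lens genes 7 were not listed in any of the 4 and 16 stayed under an FPKM of 1. Crygs and Bfsp2, a lens filament protein (0.2 and 0.07, then 2.02 and 8.01), were the low ones that rose, and Cryab, a small heat shock protein with wide expression, was high throughout (511.71 and 456.72, then 854.11 and 639.76). Bfsp2 passed the filter only through its day 3 values.

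Most of the expressed retinal progenitor factors rose. Pax6 went from an FPKM of 42.16 in BM and 43.27 in C to 207.22 and 174.57, or 4.38-fold up, and Six3 from 37.11 and 41.7 to 62.92 and 60.48. Sox11, a factor of progenitors and young neurons, fell from 2.47 and 2.69 to 1.25 and 1.09. Of 21 factors 11 passed the filter, 8 rose and 1 fell, beside 36.3% and 36.7% of all genes tested. The same shares stand beside the other lists of this paragraph. In all these lists, members that pass the filter only because they are high on 1 day had to differ. In the Notch list 6 of 9 tested genes rose and 2 fell. Notch2, a receptor, went from 31.28 and 32.04 to 193.07 and 178.35, and Hes1, the main Notch effector, from 10.07 and 6.67 to 24.16 and 19.02. Of 10 BMP response genes 8 rose, such as Id3 (64.05 and 84.53, then 212.76 and 230.55). Of the neuronal markers, Tfap2a rose and Tubb3, Gap43 and Isl1 fell, Tubb3 from 6.35 and 8.05 to 1.23 and 2.33, and Apoe, a glial lipid carrier, rose from 3.34 and 3.04 to 47.3 and 49.04. Of 32 cilium genes tested 16 rose and 3 fell. Among 11 YAP targets 5 rose and 2 fell, of 8 IGF pathway genes 5 rose and 3 fell, and of 6 imprinted growth genes 3 rose and 2 fell, beside 36.3% and 36.7% of all genes tested. The YAP count of 5 was 2 without the C day 1 or BM day 3 library, and the IGF count of 5 was 3 without the BM day 1 library. In the short Wnt feedback list 5 of 6 tested genes rose and 1 fell, and 2 rose without the C day 1 library and 3 without any other 1 of the 4. Of 66 replication-dependent histone genes 15 passed the filter, 9 rose (6 without the BM day 3 or C day 3 library) and 2 fell, the latter being Hist1h2ao and Hist1h2ap (20.99 and 27.48, then 1.16 and 1.94), which are near copies of other genes. Poly-A selection captures these mostly unpolyadenylated transcripts poorly.

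**Figure D4:**
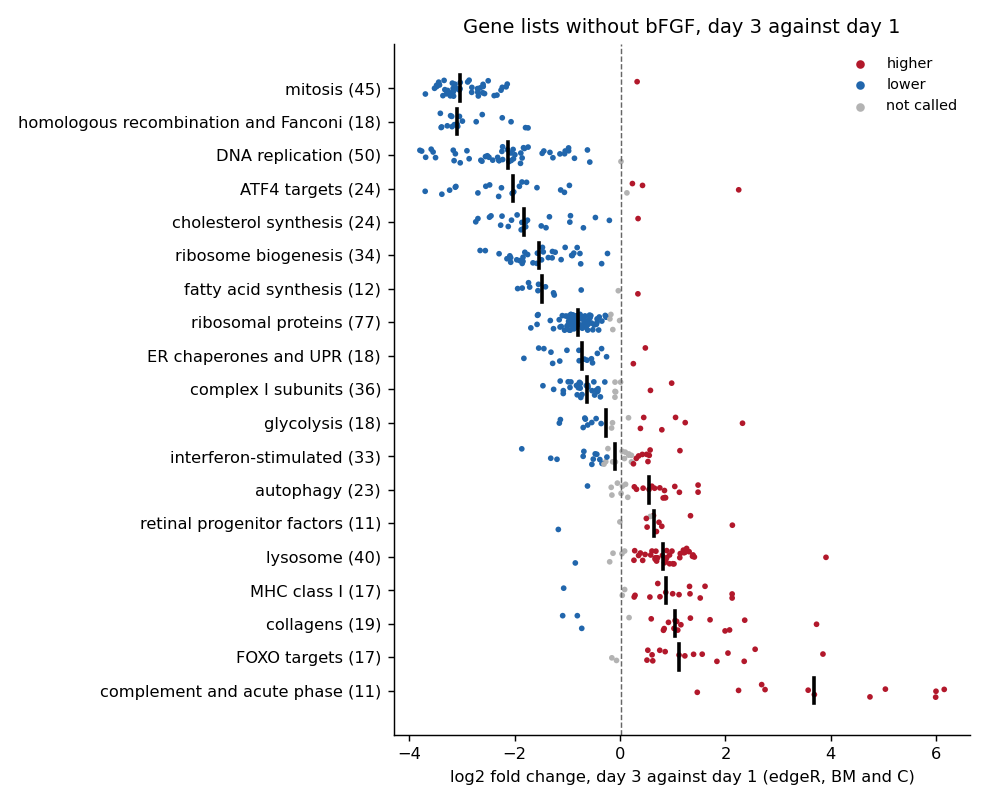
Each point is 1 tested gene of a list with its log2 fold change of day 3 against day 1 from the edgeR fit of BM and C, red where it rose, blue where it fell and grey where it was not called; bars mark list medians and the dashed line the median of all genes tested. The medians run from -3.09 for homologous recombination and -3.04 for mitosis to 3.69 for complement and acute phase genes.

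Whether these changes differ from those with bFGF was tested as an interaction over 8 libraries (BM, C, B and BC on days 1 and 3), with the change without bFGF minus the change with it. Of 11231 genes, 1581 had a more negative change without bFGF (14.1%) and 984 a more positive one (8.76%). B and BC stood further apart on day 3 than BM and C did, with 226 genes at least 2-fold different between B and BC and 53 between C and BM. These counts depended on single libraries. The first ran from 552 without the C day 1 library to 2420 without the BC day 3 library, and the second from 159 to 2183 without the same libraries.

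Mitosis genes changed differently with and without bFGF. The median log2 fold change of the 45 genes was -3.04 without bFGF and -0.89 with it, and 44 genes had a more negative change without bFGF (41 to 44 with any 1 of the 8 libraries left out). Ccnb2 went from an FPKM of 59.19 in B and 61.18 in BC on day 1 to 34.07 and 30.47 on day 3, which leaves it above 6.97 and 6.92 in BM and C (interaction -2.57 ± 0.14 SE, adjusted p = 0.00115, edgeR). Replication genes fell in both settings, with medians of -2.12 without and -1.39 with bFGF. Of 50, 30 had a more negative change without bFGF, but this count was 5 without the C day 1 library, 8 without B day 1, 9 without BM day 3, 14 without BM day 1 or C day 3 and 17 without BC day 1. Mcm5, for example, reached 9.07 in B and 6.08 in BC on day 3, from 35.14 and 38.72. Genes of homologous recombination and the Fanconi pathway also fell in both settings, with medians of -3.09 without and -1.31 with bFGF.

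Ribosomal proteins and ribosome assembly differed in this respect. With bFGF the median change of the 77 ribosomal protein genes was 0.10, and 73 had a more negative change without bFGF (54 to 73 with any 1 library left out). Rpl12 was at 1518.33 in B and 1673.11 in BC on day 1 and at 1370.23 and 1454.53 on day 3, while it fell 2.96-fold without bFGF. Ribosome biogenesis genes fell with bFGF too, by a median of -1.83 against -1.53 without it. Only 1 of the 34 had a more negative change without bFGF and 12 had a more positive one, a count of 2 without BM day 1, C day 1 or BC day 1. Fbl was at 199.42 and 210.6 in B and BC on day 1 and at 60.59 and 57.41 on day 3.

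Sterol genes also differed. Their median was -1.82 without and -0.41 with bFGF, and 21 of 24 had a more negative change without bFGF (18 to 22 with any 1 library left out). Mvd was at 73.46 and 69.32 in B and BC on day 1 and at 39.05 and 32.49 on day 3. In fatty acid synthesis 11 of 12 differed (5 without the C day 1 library), with a median of -0.11 with bFGF. In glycolysis 13 of 18 had a more negative change without bFGF (8 without C day 1), with a median of 0.67 with bFGF against -0.26 without it. Ldha was at 967.61 and 1042.31 in B and BC on day 1 and at 1145.14 and 1083.4 on day 3. ATF4 targets fell in both settings, with medians of -2.03 without and -1.10 with bFGF. Of 24 ATF4 targets 14 differed (7 without C day 1, 8 without BM day 3 or B day 1, and 9 without BM day 1).

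The medians of several lists that rose were positive with bFGF as well. Those without bFGF come from the fit of 4 libraries and those with it from the fit of 8. Each is taken over the genes that passed the filter of its fit. The median of the lysosome list was 0.82 without and 0.98 with bFGF, that of MHC class I 0.87 and 1.18, and that of FOXO targets 1.12 and 1.28. For retinal progenitor factors the median was 0.63 and 0.60, and for BMP response genes 0.82 and 0.73. The median of collagens was 1.05 and 0.97, and that of basement membrane and matrix genes 0.87 and 0.96. It was 0.66 over 9 genes and 0.37 over 10 for the Notch list, and 1.01 over 6 genes and 0.49 over 5 for the Wnt feedback list. The gene sets of these 2 lists thus differ, and their median interactions were 0.11 and 0.15. For the complement and acute phase list the medians were 3.69 and 3.29. Txnip reached 965.43 in B and 1063.37 in BC on day 3, from 23.25 and 32.29. The mean log2(FPKM + 1) of the complement and acute phase list was 1.85 in B and 1.76 in BC on day 1 and 3.79 and 4.92 on day 3, against 6.21 and 6.11 in BM and C on day 3. The day 3 FPKM of C3 was 618.69 (BM), 496.53 (C), 15.26 (B) and 53.68 (BC), and its interaction did not pass (1.95 ± 0.89 SE, adjusted p = 0.156, edgeR).

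Single genes showed the largest gaps between the settings. The 10 largest interactions in each direction were listed after their values had been seen, and the following are among them. Angptl4 rose in BM and C and was at 1.24 and 0.72 on day 1 and 1.49 and 3.77 on day 3 in B and BC (interaction 4.78 ± 0.89 SE, adjusted p = 0.013, edgeR). Acta2 was at 15.43 and 11.5 in B and BC on day 1 and at 9.12 and 8.83 on day 3 (interaction 3.56 ± 0.38 SE). Gdf15 fell in BM and C and was at 48.04 and 50.1 in B and BC on day 1 and at 190.68 and 90.58 on day 3 (interaction -4.51 ± 0.46 SE). Aqp8, a water channel, did not pass without bFGF (6.09 and 3.36, then 7.29 and 3.31) and went from 6.39 and 4.18 to 91.98 and 158.68 with it.

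The levels reached on day 3 without bFGF were close to those of day 7 in several lists. The mean log2(FPKM + 1) of the 45 mitosis genes was 5.72 on day 0, 5.36 in BM and 5.49 in C on day 1, 2.84 and 2.77 on day 3 and 3.02 and 2.83 on day 7. That of the cholesterol list was 6.46 on day 0, 6.30 and 6.36 on day 1, 4.79 and 4.76 on day 3 and 4.94 and 4.83 on day 7. Both lists stood close to day 0 on day 1, and their fall lay between days 1 and 3. The day 0 cells are described as cultured in BM, so day 0 may not be a state with bFGF. The complement and acute phase list was at 1.41 on day 0, 2.79 and 2.23 on day 1, 6.21 and 6.11 on day 3 and 6.31 and 6.63 on day 7. Other lists had begun to move earlier. Ribosome biogenesis was at 6.18 on day 0, 5.15 and 5.17 on day 1, 3.74 and 3.83 on day 3 and 4.36 and 4.32 on day 7, and the lysosome list at 4.71, then 5.43 and 5.47, then 6.19 and 6.33, then 6.25 and 6.43. ATF4 targets were higher on day 1 (6.28 and 6.28) than on day 0 (5.37) before they went to 4.62 and 4.67 on day 3. Single genes kept moving, such as Postn (137.06 in BM and 146.28 in C on day 7) and Galnt15, which was at 4.14 and 2.56 on day 7.

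**Figure D5:**
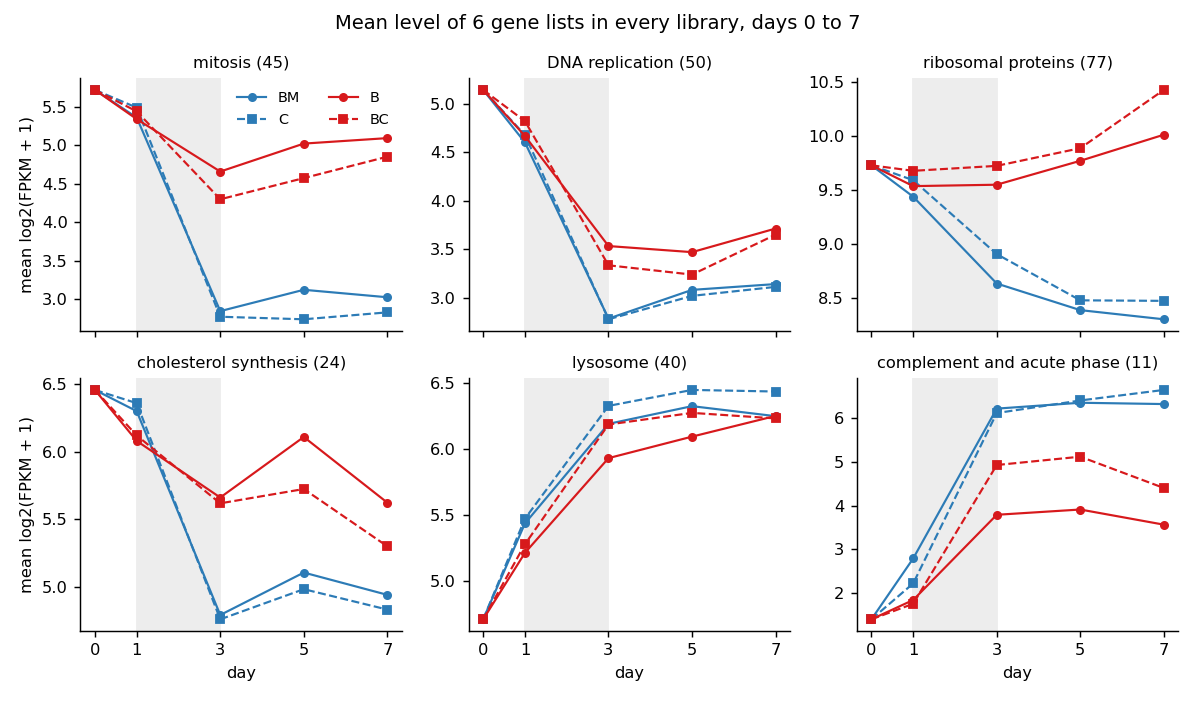
The mean log2(FPKM + 1) of the tested genes of 6 lists is drawn for each library against the day, for BM and C in blue and B and BC in red, with the day 0 library shared by all; the grey band marks days 1 to 3. Mitosis genes drop in BM and C from 5.36 and 5.49 to 2.84 and 2.77 in the band and to 4.66 and 4.30 in B and BC, and the lysosome list rises in all 4 media.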

How the data were processed

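RNA of 17 mNRPC libraries had been sequenced, and the authors aligned reads with Bowtie 2 and deposited, per gene, an expected count and an FPKM. The submitters' processing notes name RSEM and mm10, whereas the study's methods name eXpress for the FPKM, so which tool made the deposited values is not settled here, and versions are not given in the sources used here. Groups were taken from the sample labels, 1 library each. The members and gene lists were chosen with earlier results of these data known. For the tests each expected count was rounded, and a gene not listed was set to 0. Genes averaging an FPKM of 1 or more over the libraries of a fit were tested with the edgeR quasi-likelihood test (edgeR 4.0.16, R 4.3.3, TMM scaling, Benjamini-Hochberg adjusted p under 0.05). The model held CHIR99021 and day over 4 libraries, an interaction of day and bFGF over 8, and day steps over 8. A gene changed only if BM and C moved the same way. "At least 2-fold" refers to FPKM + 1. Named genes were the 12 largest changes each way by the smaller of the BM and C differences in log2(FPKM + 1), among changed genes with an FPKM of 10 or more in both libraries of a day, plus the changed genes that were under 1 in both libraries of a day and 10 or more in both of the other. Leading members of each list were added, and further list members and markers were chosen as examples after their values were seen. A separation of the days in genes chosen in these ways follows largely from the choice. Alternatives were DESeq2 1.42.0, limma 3.58.1 on log2(FPKM + 1), other filters, scalings and covariates, and each library left out. When 1 of the 4 libraries was left out of the main fit, the CHIR99021 term was dropped too. The list counts with a library left out were added after seeing the data. The procedure was tested on simulated data in which few genes changed, upward or downward at random. Most genes changed in the real data, and the simulation does not cover that case. The 4 libraries held 17843055 to 18980140 expected counts each, so that depth differed little between the days.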

Additional observations from a re-analysis of the deposited data

Results flagged for a closer look

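The change from day 1 to day 3 differed between media without and with bFGF in 1581 genes that were more negative and 984 that were more positive without bFGF (edgeR interaction over 8 libraries). Among the genes named in the report, the interaction on the log2 scale passed for Angptl4 (4.78) and Porcn (2.28), whose rises were larger without bFGF. It also passed for Cdca3 (-2.62), Ccnb2 (-2.57), Ccna2 (-2.34), Cdc20 (-2.23), 2810417H13Rik (-1.88), Mcm5 (-1.54), Tk1 (-1.50), Mybl2 (-1.39) and Rrm2 (-1.06), all genes of the cell cycle, and for Mthfd2 (-1.81) and Igfbp3 (-3.60). Each condition has 1 library on a day, so no library could be tested for standing apart from its group.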

How the results depend on the processing

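The counts of 4067 higher and 4118 lower genes stayed within 1.5 times under DESeq2, limma, other filters, other scalings, other covariates and an adjusted p under 0.01. They were 857 and 963 when a 2-fold change in both media was required, and ran from 2722 to 3230 and from 2985 to 3351 with 1 library left out. The interaction counts of 1581 and 984 stayed within 1.5 times in all settings with every library kept and ran from 552 to 2420 and from 159 to 2183 with 1 left out. Between days 5 and 7 the count of 85 was 174 with DESeq2, 149 without a filter, 56 at a mean FPKM of at least 5, 46 with limma and 18 to 538 with 1 library left out. It ran from 1384 to 4310 between days 3 and 5 and from 7665 to 8419 between days 1 and 3. The median of interferon-stimulated genes turned from -0.09 to 0.05 after quantile normalization, and Axin2 from 0.64 to -0.04 (log2) without the C day 3 library (-0.04 to 1.38 with any 1 library left out). The fits of the 4 libraries with 1 left out had no CHIR99021 term, and their direction rule used only the medium with both days. The cause of these changes was not tested. No paired analysis was possible because each group has 1 library. BM and C share the model through the CHIR99021 term, except where that term was left out.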
